A study of Homo sapiens with 8 samples.

Results

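Transcripts of 37 genes for the synthesis and supply of purine and pyrimidine nucleotides were compared between Hs578T breast cancer cells kept in low and in high glucose. The genes were chosen by symbol as enzymes of the purine and pyrimidine pathways, but with earlier results of these data known. Their shares beside those of all genes are therefore a description. All 37 were found, 1 row each, among the 21077 rows of the expression table. Hs578T is an established human breast cancer cell line without the estrogen receptor. The control cells were cultured at 5 mM glucose (low glucose) and the others at 25 mM (high glucose, to mimic hyperglycemia) for 48 hours, and RNA-Seq was performed on 4 replicates of each, giving 8 libraries. By the methods of the study, both groups were in medium without serum, and all cells were conditioned in low glucose before the treated cells were switched. In some experiments the study added mannitol to the 5 mM control to match osmolarity. It reported that the phenotypes it examined, with proliferation and migration shown, did not differ with or without mannitol. The treatment labels here do not mention mannitol. If none was added, glucose and the osmolarity of the medium changed together between the groups and cannot be told apart. All values come from 1 cell line. The labels do not tell whether replicates were separate cultures, so that the p values measure the spread among these libraries, which may be technical.

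Cells make purine nucleotides by building the purine ring step by step on phosphoribosyl pyrophosphate (PRPP), a sugar phosphate that comes from glucose through the pentose phosphate pathway. The route ends at inosine monophosphate (IMP), from which separate branches lead to AMP and to GMP. Pyrimidines are made the other way around, with the ring closed first and the sugar added later, up to uridine monophosphate (UMP). Salvage enzymes return free bases and nucleosides to nucleotides, kinases raise monophosphates to triphosphates, and a further set of enzymes makes and balances the deoxynucleotides for DNA. Proliferating tumor cells draw on all of these routes, and several of the enzymes are targets of antimetabolite drugs.

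Values are normalized signal, taken as CPM (counts relative to library size), and are listed in the order of replicates 1 to 4, an order without meaning. Log2 fold changes are differences of mean log2(CPM + 1), high minus low glucose, and the added 1 makes them smaller for genes of low signal. A gene was called higher or lower when its adjusted p from limma, Benjamini-Hochberg over all 15570 genes tested, was under 0.05. Libraries held an estimated 10244900 to 11956677 counts, so that DHODH and NME3, the members with the lowest values, had 24 or more estimated counts in each library. The RNA came from whole cultures, so fewer cells of a kind and less RNA per cell cannot be told apart. The groups were far apart across the transcriptome, with 72.9% of genes called, 35.7% higher and 37.2% lower. Mitochondrial transcripts took 0.969% to 1.06% of the signal in low and 1.67% to 1.95% in high glucose, and their part in the results was not tested. Of the markers of the line, the 6 mesenchymal transcripts summed to 55913 to 59819 CPM in low and 33698 to 35088 CPM in high glucose. Most of this sum was FN1, which fell from 42759 ± 1636 to 24880 ± 472 CPM (SD, n = 4). VIM fell from 8420 ± 132 to 3733 ± 140 CPM (SD, n = 4). All 6 were called lower, although with the same total SPARC turned from -0.15 to 0.09 and COL1A1 was at 0.03, not called. Of 8 luminal or epithelial markers, ESR1 was at most 0.270 CPM, PGR at most 0.200 CPM, CDH1 at most 0.902 CPM and EPCAM 0 in each library, whereas GATA3 was at 18.9 to 24.2 CPM and FOXA1 at 2.81 to 3.79 CPM over both groups. Both keratins of simple epithelia were lower in high glucose, KRT8 with a log2 fold change of -1.47 (mean 49.5 CPM in low glucose) and KRT18 with -1.15 (mean 232 CPM in low glucose). The part of these markers in the results was not tested. The sum of 4 endothelial markers was 2.12 to 2.77 CPM in low and 7.12 to 8.58 CPM in high glucose with 3 of the 4 called higher and CDH5 at 0, and the sum of the 3 leukocyte markers in the table, of 5 listed, was 0.217 to 0.885 CPM in low and 1.30 to 1.91 CPM in high glucose with LYZ at 0.

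All 37 members passed the filter on low values. In high glucose, 25 members were lower, 7 were higher and 5 were not called, which is 86.5% called against the 72.9% of all genes. By direction, 67.6% of members were lower against 37.2% of all genes, and 18.9% were higher against 35.7%. The median log2 fold change of the members was -0.38, and that of all genes was -0.00 with quartiles of -0.50 and 0.47. The higher members were GART, PAICS, AK4, UMPS, CTPS1, DUT and SAMHD1. The members that were not called were PPAT, PFAS, AK1, DTYMK and DCK. For 30 of the 37 members (81.1%) the 4 high-glucose values did not overlap the 4 low-glucose values, against 66.7% of all genes. A change of at least 2-fold on the log2(CPM + 1) scale was found for SAMHD1, which was higher, and for IMPDH2, GMPS, NME3 and UCKL1, which were lower. Such changes made up 8.57% (higher) and 8.48% (lower) of all genes. UCK1, at -0.99, fell just short on that scale, although its mean CPM was 2.04-fold lower. The split between higher and lower members depended on how the libraries were scaled. With the libraries rescaled to the same total, 10 of the 37 members were higher and 17 of the 37 were lower. Of all genes tested, 47.0% were then higher and 27.9% were lower. Lower calls thus outnumbered higher calls among the members but not among all genes. The median of the members was -0.14 while that of all genes was 0.20. The direction of CMPK1 turned under that scaling, and AK3, GUK1, NME1, NME4, DHODH, CTPS2 and RRM2B were then no longer called. The 37 members together took 0.272% to 0.276% of all signal in low and 0.226% to 0.232% in high glucose, a share that does not depend on the scaling factor of a library. This sum gives most weight to genes of high signal. The means of IMPDH2, NME2, GMPS and CMPK1 went from 422, 347, 282 and 254 CPM in low to 161, 213, 133 and 236 CPM in high glucose. The share therefore does not describe the set gene by gene, and it includes the 7 higher members.

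**Figure D1:**
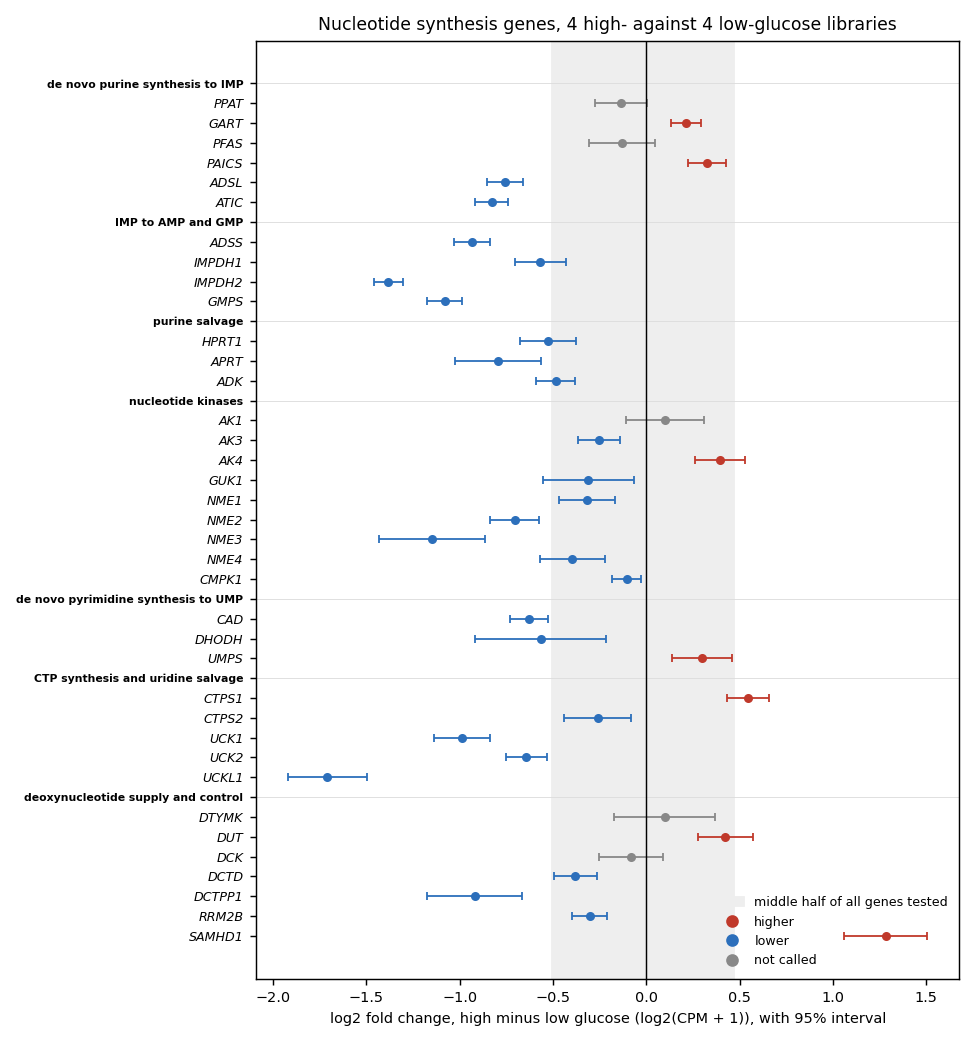
Log2 fold change of each of the 37 genes, high minus low glucose from mean log2(CPM + 1) (x axis), with bars for the 95% interval and genes grouped by role (y axis); the gray band holds the values between the quartiles of all genes tested, -0.50 and 0.47. Most genes lie left of 0, UCKL1 is lowest at -1.71 and SAMHD1 is highest at 1.28.

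The enzymes of the purine ring did not move as a block. PPAT, the amidotransferase that commits PRPP to purine synthesis, was at 33.9, 30.1, 33.6 and 35.5 CPM in low and at 30.6, 30.0, 29.1 and 30.9 CPM in high glucose. The groups overlapped and the change was not called (log2 fold change -0.14, 95% interval -0.27 to 0.0018, adjusted p = 0.0700), although it was called without low-glucose library 2 (-0.18, adjusted p = 0.0189). PFAS, which adds an amide nitrogen from glutamine, was at 29.4 to 36.9 CPM in low and 28.8 to 33.4 CPM in high glucose, with overlap and no call (log2 fold change -0.13, 95% interval -0.31 to 0.04). With libraries rescaled to the same total the values of PPAT and PFAS were 0.10 and 0.11, also not called. GART, a multifunctional enzyme of the early and middle steps, was at 114, 113, 116 and 112 CPM in low and at 129, 130.5, 131 and 137 CPM in high glucose. Every high-glucose value lay above the highest low-glucose value, a small and uniform rise (log2 fold change 0.21 ± 0.0378 SE, adjusted p = 1.16e-04).

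PAICS, which carries out the carboxylation of the intermediate AIR and the following synthetase step, was at 109.9, 119, 111 and 111 CPM in low and at 140.4, 131, 144 and 150.2 CPM in high glucose. The groups were separate, and PAICS rose by a log2 fold change of 0.32 ± 0.0472 SE (adjusted p = 1.52e-05). PAICS and PPAT start from opposite strands of chromosome 4, with 136 bases between the PPAT start, 56435615 on the minus strand, and 56435752 on the plus strand, 1 of several annotated starts of PAICS. The annotation of the PAICS gene runs from 56410507 to 56464578 and so also reaches into PPAT, and which start was used was not measured. That shared stretch is shown because it separates these starts of a gene pair of which 1 was called and the other was not. It lies at chr4:56435616-56435751 of GRCh38.p14 (RefSeq) and is written on the plus strand, from the PPAT start on the left to that start of PAICS on the right, with the GC boxes GGGCGG in capitals.
PPAT-PAICS: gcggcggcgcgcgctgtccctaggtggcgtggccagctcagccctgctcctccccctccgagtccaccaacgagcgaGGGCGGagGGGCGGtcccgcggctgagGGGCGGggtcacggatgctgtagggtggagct
The stretch holds 3 GC boxes and 75.0% G or C. The log2 fold changes of the neighbors, -0.14 for PPAT and 0.32 for PAICS, are given side by side as a description, and the difference between them was not tested.

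The last enzymes on the way to IMP fell. ADSL, the lyase that acts both here and again in the AMP branch, was at 134, 128, 129.8 and 139.9 CPM in low and at 83.2, 77.3, 76.5 and 76.6 CPM in high glucose. ATIC, the bifunctional enzyme that closes the ring to IMP, was at 185, 176, 169 and 169 CPM in low and at 98.8, 94.9, 99.0 and 98.8 CPM in high glucose. For both genes each high-glucose value was well below the lowest low-glucose value. The log2 fold change was -0.75 ± 0.0450 SE for ADSL (adjusted p = 4.97e-10) and -0.83 ± 0.0413 SE for ATIC (adjusted p = 6.07e-11). Of the 6 genes of the route to IMP, 2 were higher, 2 were lower and 2 were not called, with a median log2 fold change of -0.13.

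All 4 genes that lead from IMP to AMP and GMP were lower in high glucose, with a median log2 fold change of -1.01. IMPDH2, the isoform of IMP dehydrogenase that predominates in proliferating cells and catalyzes the rate-limiting step of GMP synthesis, was at 426, 426, 417 and 418 CPM in low and at 164, 168, 162 and 152 CPM in high glucose. No low-glucose value came near a high-glucose value, and the spread within each group was small. IMPDH2 was 2.61-fold lower (log2 fold change -1.38 ± 0.0369 SE, adjusted p = 6.36e-14). The gene (ENSG00000178035.12) lies on chromosome 3 from 49024325 to 49029398 (RefSeq, GRCh38.p14), and its values, like those of all genes here, are for the whole gene. GMPS, the next enzyme, which aminates XMP to GMP, was at 293, 270.0, 284 and 283 CPM in low and at 128, 126, 141 and 137 CPM in high glucose. It was 2.12-fold lower, again without overlap (log2 fold change -1.08 ± 0.0439 SE, adjusted p = 6.10e-12). ADSS, the adenylosuccinate synthase that opens the AMP branch (ADSS2 in RefSeq), was at 136, 140.1, 149 and 148 CPM in low and at 71.8, 73.1, 76.2 and 77.5 CPM in high glucose. Its log2 fold change was -0.93 ± 0.0450 SE (adjusted p = 4.26e-11), so that genes at the head of both branches fell. IMPDH1, the isoform of broad low-level expression, was at 104, 113, 103 and 105 CPM in low and at 77.0, 79.0, 68.0 and 63.0 CPM in high glucose. High-glucose libraries 3 and 4 were the lower pair here, but all 4 were below the low-glucose range (log2 fold change -0.57 ± 0.0650 SE, adjusted p = 1.10e-06).

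**Figure D2:**
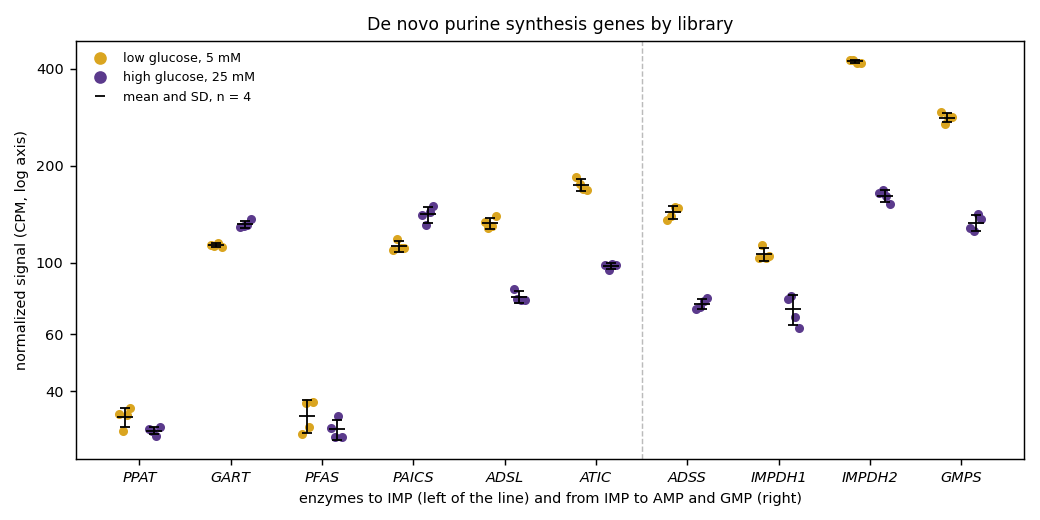
Normalized signal of the 10 genes of de novo purine synthesis in each library (CPM on a log axis), with enzymes up to IMP left of the dashed line and those from IMP to AMP and GMP to the right; gold points are low-glucose and purple points high-glucose libraries, and black marks are the mean and SD of 4 libraries. GART and PAICS sit higher in high glucose, PPAT and PFAS overlap, and the other 6 genes sit lower, IMPDH2 falling from a mean of 422 to 161 CPM.

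Purine salvage fell as well, in 3 of 3 genes. HPRT1, which returns hypoxanthine and guanine to the nucleotide pool, fell from 31.1 ± 1.55 to 21.3 ± 1.32 CPM (SD, n = 4, log2 fold change -0.53). APRT, the corresponding enzyme for adenine, was at 48.1, 56.6, 52.7 and 45.0 CPM in low and at 32.2, 35.0, 25.5 and 23.5 CPM in high glucose. The groups of APRT did not overlap despite a wide spread in each, with high-glucose libraries 3 and 4 lowest (log2 fold change -0.79 ± 0.108 SE, adjusted p = 7.35e-06). ADK, which phosphorylates adenosine, fell from 64.2 ± 1.86 to 45.5 ± 1.19 CPM (SD, n = 4, log2 fold change -0.49). The 3 genes were also called lower with the libraries rescaled to the same total.

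Of the 9 nucleotide kinases, 7 were lower, AK4 was higher and AK1 was not called, with a median log2 fold change of -0.31, whereas 3 were higher and 2 were lower with libraries rescaled to the same total. AK4, an adenylate kinase of the mitochondrial matrix, was at 29.2, 29.7, 30.1 and 32.6 CPM in low and at 41.2, 40.6, 42.7 and 37.1 CPM in high glucose. The groups were separate, and the log2 fold change was 0.40 ± 0.0633 SE (adjusted p = 3.99e-05). AK3, also mitochondrial and specific for GTP as the phosphate donor, fell from 55.7 ± 2.88 to 46.5 ± 0.931 CPM (SD, n = 4, log2 fold change -0.25), a call that was lost with libraries rescaled to the same total (-0.01). AK1, the cytosolic adenylate kinase, was at 20.1 ± 2.87 CPM at 5 mM and 21.5 ± 1.84 CPM at 25 mM glucose, and the 95% interval of its log2 fold change was -0.11 to 0.31. With the same total it was called higher (0.33).

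Among the nucleoside diphosphate kinases, which pass phosphate from ATP to other nucleotides, NME3 changed most. It was at 6.42, 8.10, 6.61 and 7.55 CPM in low and at 3.03, 3.01, 2.58 and 2.16 CPM in high glucose, a 2.66-fold lower mean without overlap (log2 fold change -1.15 ± 0.133 SE, adjusted p = 1.29e-06). NME2 fell from 347 ± 19.6 to 213 ± 21.5 CPM (SD, n = 4, log2 fold change -0.70). NME1 fell from 82.2 ± 5.31 to 65.9 ± 7.12 CPM (log2 fold change -0.32), and NME4, the mitochondrial member, fell from 46.8 ± 4.56 to 35.3 ± 3.52 CPM (-0.40). The falls of NME1 and NME4 were not called with libraries rescaled to the same total (-0.08 and -0.16). NME1 and NME2 are adjacent on chromosome 17 and similar in sequence. A readthrough row NME1-NME2 held 0 to 22.1 CPM per library, so that the division of reads between NME1 and NME2 is uncertain.

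GUK1, the guanylate kinase that turns GMP into GDP, was at 55.0, 64.1, 65.8 and 63.3 CPM in low and at 56.9, 61.7, 45.3 and 38.3 CPM in high glucose. High-glucose libraries 1 and 2 were within the low-glucose range and libraries 3 and 4 were below it. The call (log2 fold change -0.31 ± 0.114 SE, adjusted p = 0.0227) was therefore fragile. It was lost without low-glucose library 2 (-0.29), 3 (-0.28) or 4 (-0.30), without high-glucose library 3 (-0.27) or 4 (-0.19), and without both of the latter (-0.06, adjusted p = 0.468). CMPK1, the kinase for UMP and CMP, was at 261, 245, 252 and 259 CPM in low and at 232, 228, 243 and 242 CPM in high glucose. It was called lower (log2 fold change -0.11 ± 0.0367 SE, adjusted p = 0.0177) but called higher with libraries rescaled to the same total (0.14, adjusted p = 0.00309), so its direction is not established. The call was also lost without low-glucose library 1 (-0.09) or 4 (-0.10) or high-glucose library 2 (-0.09).

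The 3 genes of de novo pyrimidine synthesis split. CAD, the large multifunctional protein of the initial steps and the point of control, was at 164, 165, 156 and 157 CPM in low and at 109, 109, 99.5 and 96.2 CPM in high glucose. The groups were far apart for their spread (log2 fold change -0.63 ± 0.0476 SE, adjusted p = 8.44e-09). DHODH, the dehydrogenase of the inner mitochondrial membrane, was at 3.32, 4.95, 6.28 and 4.95 CPM in low and at 2.86, 3.31, 2.29 and 3.24 CPM in high glucose. The groups met without overlapping, at low counts (log2 fold change -0.57 ± 0.164 SE, adjusted p = 0.00596), and the gene was not called with the same total (adjusted p = 0.0517). UMPS, which adds the sugar phosphate and decarboxylates the product to UMP, was at 34.9, 32.5, 40.8 and 33.8 CPM in low and at 46.4, 45.2, 39.6 and 44.2 CPM in high glucose. UMPS rose (log2 fold change 0.30 ± 0.0745 SE, adjusted p = 0.00203), although low-glucose library 3 was above high-glucose library 3.

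In CTP synthesis and uridine salvage, CTPS1 was higher and the other 4 genes were lower, with a median log2 fold change of -0.64. CTPS1, the CTP synthase on which proliferating lymphocytes depend, was at 55.1, 54.4, 52.3 and 47.9 CPM in low and at 77.4, 77.1, 74.5 and 78.4 CPM in high glucose. Its paralog CTPS2 was at 26.7, 24.4, 25.5 and 25.7 CPM in low and at 17.7, 21.7, 23.1 and 22.5 CPM in high glucose. The groups did not overlap for either gene, and they lay in opposite order. The log2 fold change was 0.54 ± 0.0523 SE for CTPS1 (adjusted p = 1.43e-07) and -0.26 ± 0.0845 SE for CTPS2 (adjusted p = 0.0117), the latter not called with the same total (-0.03).

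UCKL1 (ENSG00000198276.16, chromosome 20 from 63939829 to 63956416), a uridine-cytidine kinase-like protein, had the largest fall among the 37 genes. It was at 51.6, 55.1, 51.3 and 46.6 CPM in low and at 17.6, 13.7, 16.7 and 12.2 CPM in high glucose. All 4 high-glucose values were far below the low-glucose range, a 3.39-fold lower mean (log2 fold change -1.71 ± 0.0986 SE, adjusted p = 3.45e-10). UCK1 and UCK2, the uridine-cytidine kinases proper, which also activate pyrimidine analog drugs, fell from 34.8 ± 2.47 to 17.0 ± 0.387 CPM (log2 fold change -0.99) and from 79.2 ± 2.45 to 50.4 ± 2.63 CPM (-0.64; SD, n = 4). An antisense row, UCKL1-AS1, was at most 2.18 CPM in any library, and no source used here states whether the counting of these libraries used strand. The 250 bases before the UCKL1 start, at chr20:63956417-63956666 on the minus strand (RefSeq, GRCh38.p14), are shown because this gene fell most and because of their repeated structure, with the E-box CACGTG in capitals.
UCKL1: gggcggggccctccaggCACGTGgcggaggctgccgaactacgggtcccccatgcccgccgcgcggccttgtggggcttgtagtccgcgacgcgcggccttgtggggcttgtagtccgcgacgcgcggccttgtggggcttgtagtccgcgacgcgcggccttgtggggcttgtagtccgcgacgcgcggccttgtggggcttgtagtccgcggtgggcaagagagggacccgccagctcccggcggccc
From position -191 to -38, counted back from the start, the sequence repeats a unit of 31 bases 4.97 times over 154 bases. The repeat is a feature of the reference sequence, and no measurement here bears on it.

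The genes of deoxynucleotide supply and control were mixed, with 2 higher, 3 lower and 2 not called and a median log2 fold change of -0.08. SAMHD1 (ENSG00000101347.9, chromosome 20 from 36889773 to 36951708), the hydrolase that breaks deoxynucleotide triphosphates down and keeps their pool small outside S phase, had the largest rise of the 37 genes. It was at 9.30, 13.2, 12.2 and 9.79 CPM in low and at 28.3, 30.9, 26.4 and 27.4 CPM in high glucose. The lowest high-glucose value was above the highest low-glucose value, and the mean was 2.54-fold higher (log2 fold change 1.28 ± 0.105 SE, adjusted p = 2.24e-08). The 250 bases before its start, at chr20:36951709-36951958 on the minus strand (RefSeq, GRCh38.p14), are shown as the counterpart to UCKL1, the gene that moved most in the other direction, with the CCAAT boxes in capitals.
SAMHD1: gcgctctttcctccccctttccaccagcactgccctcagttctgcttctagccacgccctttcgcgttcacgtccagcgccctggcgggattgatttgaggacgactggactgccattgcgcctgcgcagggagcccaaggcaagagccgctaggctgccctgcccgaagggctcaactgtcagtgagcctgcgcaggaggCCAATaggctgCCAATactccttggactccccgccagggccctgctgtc
The 2 CCAAT boxes lie close to the start, and the stretch has no GC box and no E-box of these letters.

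DUT, which removes dUTP and so keeps uracil out of DNA, was at 16.6, 17.8, 17.1 and 17.8 CPM in low and at 24.1, 23.1, 23.4 and 23.7 CPM in high glucose. Both groups were tight and well apart (log2 fold change 0.42 ± 0.0695 SE, adjusted p = 5.19e-05). DCTPP1, a pyrophosphatase that clears modified dCTP, was at 26.6, 26.1, 20.3 and 31.2 CPM in low and at 15.3, 13.9, 11.8 and 11.9 CPM in high glucose, without overlap (log2 fold change -0.92 ± 0.119 SE, adjusted p = 4.40e-06). DCTD, which deaminates dCMP to dUMP, fell from 89.2 ± 5.34 to 68.3 ± 3.78 CPM (SD, n = 4, log2 fold change -0.38). RRM2B, the p53-inducible small subunit of ribonucleotide reductase, fell from 95.4 ± 3.55 to 77.1 ± 2.42 CPM (-0.30), a call that was lost with the same total (-0.06). DTYMK, the thymidylate kinase, was at 16.7, 20.4, 16.7 and 17.3 CPM in low and at 21.8, 22.6, 19.1 and 13.9 CPM in high glucose. High-glucose library 4 was the lowest of all 8 values, and the change was not called (log2 fold change 0.10, 95% interval -0.17 to 0.37). Without that library DTYMK was called higher (0.24, adjusted p = 0.0334), as it was without high-glucose libraries 3 and 4 (0.31) and with the same total (0.33). DCK, the deoxycytidine kinase that activates gemcitabine and cytarabine, was at 29.5 ± 3.27 CPM at 5 mM and 27.8 ± 1.54 CPM at 25 mM glucose (95% interval of the log2 fold change -0.25 to 0.09, not called, and 0.16 with the same total, also not called).

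**Figure D3:**
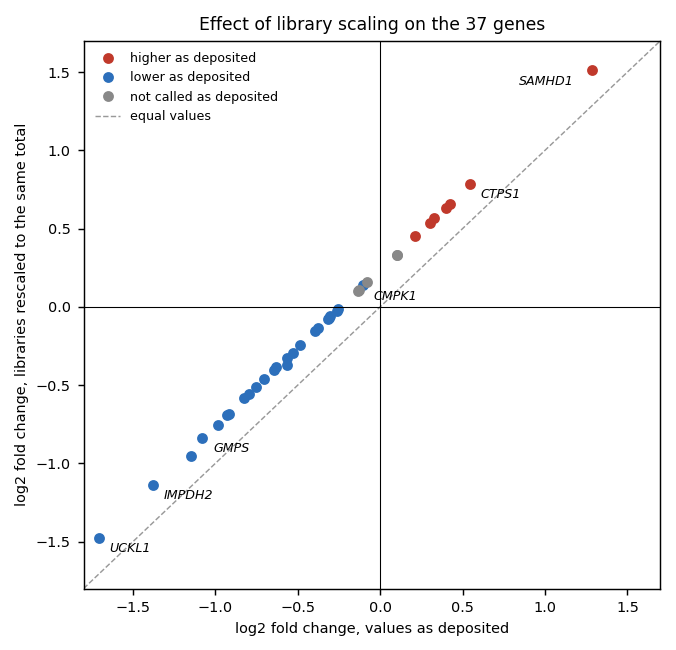
Log2 fold change of each of the 37 genes (points, colored by their call with values as deposited) with values as deposited (x axis) and with the libraries rescaled to the same total (y axis); the dashed line marks equal values. All points lie above the line, CMPK1 moves from -0.11 to 0.14, and UCKL1, IMPDH2 and GMPS stay below 0 on both axes while SAMHD1 and CTPS1 stay above.

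Because the split between higher and lower genes depended on scaling, related genes were also compared as a ratio within each library, which scaling leaves nearly as it is. A log2 ratio was tested between groups with a 2-sided exact permutation test over the 70 arrangements of 4 against 4 libraries, whose smallest possible p is 0.0286, adjusted over 8 pairs. All 8 ratios differed between the groups without overlap, each with an adjusted exact p of 0.0286, so the p values do not rank them. The pairs were chosen with earlier results of these data known, so these p values are descriptive only. Of single genes, 66.7% of all tested did not overlap either, and the share among other gene pairs was not determined. The size of a ratio depends on gene length and was not read, only its change.

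For the IMP dehydrogenases, the log2 ratio of IMPDH1 to IMPDH2 was -2.03, -1.90, -2.00 and -1.98 in low and -1.08, -1.08, -1.24 and -1.26 in high glucose. It moved toward IMPDH1 by 0.81 ± 0.0558 SE on the log2 scale, since both genes fell but IMPDH2 fell more. The ratio of CTPS1 to CTPS2 was 1.02, 1.13, 1.01 and 0.87 in low and 2.07, 1.78, 1.65 and 1.76 in high glucose, a shift toward CTPS1 of 0.81 ± 0.104 SE. The ratio of UCKL1 to UCK2 was -0.57, -0.48, -0.67 and -0.76 in low and -1.49, -1.89, -1.45 and -1.93 in high glucose, a shift of -1.07 ± 0.143 SE. The shift of UCK1 against UCK2 was smaller (-0.35 ± 0.0823 SE). The mitochondrial kinases moved from AK3 toward AK4 (-0.65 ± 0.0855 SE for AK3 to AK4). Among the diphosphate kinases NME3 fell against NME4 (-0.75 ± 0.0848 SE), and NME1 gained on NME2 (0.39 ± 0.0784 SE), the pair whose reads are uncertain. The largest shift was from RRM2B toward RRM2, the small subunit of ribonucleotide reductase made in S phase, at -2.06 ± 0.0448 SE. RRM2 itself was at 44.3, 42.6, 43.7 and 45.4 CPM in low and at 143, 147, 153 and 160.1 CPM in high glucose.

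**Figure D4:**
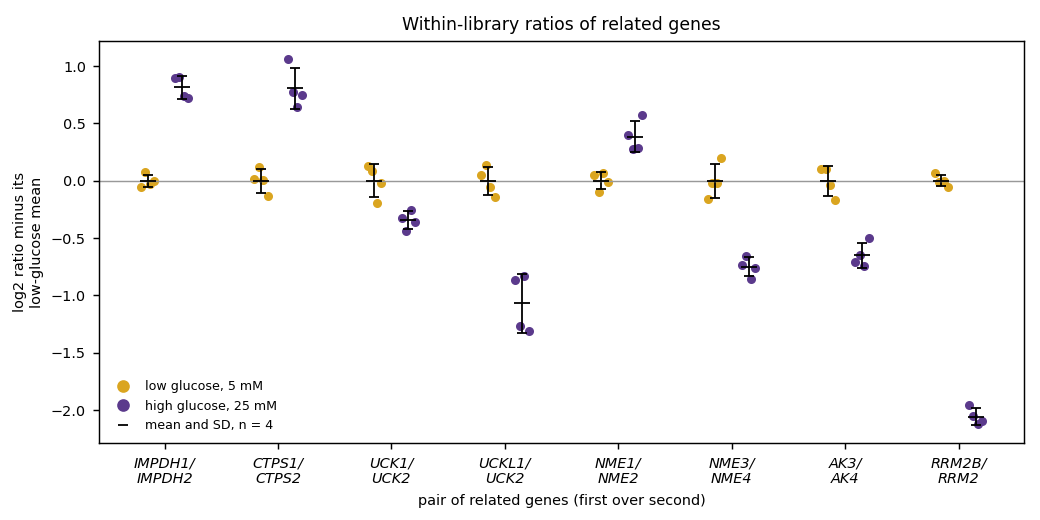
Log2 ratio of related genes within each library, minus its mean over the low-glucose libraries (y axis), for 8 pairs (x axis, first gene over second); gold points are low-glucose and purple points high-glucose libraries, with black marks for mean and SD (n = 4). The groups are separate in every pair, with shifts from -2.06 for RRM2B to RRM2 up to 0.81 for IMPDH1 to IMPDH2 and CTPS1 to CTPS2.

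Of 46 other genes of nucleotide metabolism, 44 passed the filter (GDA and TYMP did not). Of these, 13 (29.5%) were higher, 22 (50%) were lower and 9 were not called. That is 79.5% called against 72.9% of all genes, of which 35.7% were higher and 37.2% were lower. The median log2 fold change of the 44 genes was -0.27, and that of all genes was -0.00. With libraries rescaled to the same total, 18 of the 44 were higher and 16 were lower, with a median of -0.03. Of all genes, 47.0% were then higher and 27.9% were lower, with a median of 0.20. Of the 4 genes of PRPP synthesis, 1 was higher and 1 was lower, or 3 and 1 with the same total, under which PRPSAP1 turned from -0.04 to 0.20. PRPS1, a synthetase that makes PRPP itself, was at 36.7, 36.1, 35.5 and 32.0 CPM in low and at 66.9, 67.3, 63.8 and 60.6 CPM in high glucose (log2 fold change 0.86), and PRPSAP2, a subunit associated with the synthetase, fell (-0.65).

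Folate-dependent enzymes supply the formyl groups of the purine ring and the methyl group of thymidylate, and 4 of 7 fell while 1 rose, although MTHFD1, 1 of the 4, turned from -0.22 to 0.025 with the same total. The 3 largest falls were of mitochondrial enzymes, while 2 other mitochondrial enzymes of the list, MTHFD2L (-0.04) and ALDH1L2 (-0.02, or 0.22 and called with the same total), were not called. MTHFD2 was at 657, 639, 633 and 650.3 CPM in low and at 162, 158, 156 and 167 CPM in high glucose (log2 fold change -2.00 ± 0.0338 SE, adjusted p = 7.65e-16). MTHFD1L and SHMT2, which act in the same compartment, fell by 1.61 and 1.56 on the log2 scale. SHMT1, the cytosolic serine hydroxymethyltransferase, rose from 30.3 ± 2.55 to 47.2 ± 3.07 CPM (SD, n = 4, log2 fold change 0.63).

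Among other enzymes of deoxynucleotide synthesis, RRM2 rose by a log2 fold change of 1.75 and TYMS, the thymidylate synthase, by 1.21, while the mitochondrial kinases DGUOK, for deoxyguanosine, and TK2, for thymidine, fell (-0.56 and -0.34), TK2 without a call under the same total (-0.10). In this list of 7 genes 2 were higher, 2 were lower and 3 were not called, or 3 higher and 1 lower with the same total. RRM2 and TYMS also belong to the 11 proliferation genes that the study scored, of which 10 (90.9%) were higher and 1 was lower in high glucose (median log2 fold change 0.77). Of all genes, 35.7% were higher and 37.2% were lower. With the same total 10 of the 11 were higher, against 47.0% of all genes. The lower gene, CDC20 (-0.13), was then at 0.11 and not called. The summed signal of these 11 genes was 302 to 307 CPM in low and 629 to 657 CPM in high glucose. The study reported its score for patient tumors, where it was lower with diabetes, and for xenografts, where it did not differ significantly. Its BrdU incorporation assay found no gain in proliferation of cultured cell lines, Hs578T among them, in high glucose. The higher sum was not compared with a measure of growth, and the part of proliferation in the values of the nucleotide genes was not tested.

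Purine breakdown moved in both directions, whereas with values as deposited all called genes of pyrimidine breakdown and transport were lower. With the same total, 1 gene of pyrimidine breakdown was higher and 3 were lower. Of 8 genes of purine breakdown, 4 were higher and 3 were lower, 1 of which, NT5C2, turned from -0.22 to 0.023 with the same total. NT5E, the cell surface nucleotidase CD73 that makes adenosine from AMP, was at 135, 129.9, 139.6 and 145 CPM in low and at 310.3, 289.6, 315 and 316 CPM in high glucose (log2 fold change 1.16). PNP, the purine nucleoside phosphorylase, rose (0.85), as did XDH, which makes uric acid (1.43, from 0.901 ± 0.254 to 4.11 ± 0.441 CPM), whereas NT5C, a cytosolic nucleotidase, fell (-1.64). Of 4 genes of pyrimidine breakdown 3 were lower, namely UPP1, the uridine phosphorylase (-1.44), NT5C3A, a pyrimidine nucleotidase (-1.09), and DPYD, which begins uracil degradation and inactivates fluorouracil (-0.38). Of 10 interconversion enzymes 5 were higher and 5 were lower (4 lower with the same total, where GMPR2 was not called), with AMPD3, an AMP deaminase, at 1.47, and ITPA, which clears inosine triphosphate, at -1.09, NME6 at -0.96 and the adenylate kinase AK5 at -0.85. GMPR, 1 of the 5 higher (0.26), lost its call without low-glucose library 1 (0.25) or 3 (0.25), high-glucose library 1 (0.21) or 3 (0.23), or high-glucose libraries 3 and 4 (0.26). The 4 equilibrative nucleoside transporters SLC29A1 (-0.41), SLC29A2 (-0.53), SLC29A3 (-0.71) and SLC29A4 (-0.65) were all lower. The call of SLC29A1 (-0.17) was lost with the same total, and that of SLC29A2 with the same total (-0.34), without low-glucose library 2 (-0.41) and without high-glucose libraries 3 and 4 (-0.41).

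**Figure D5:**
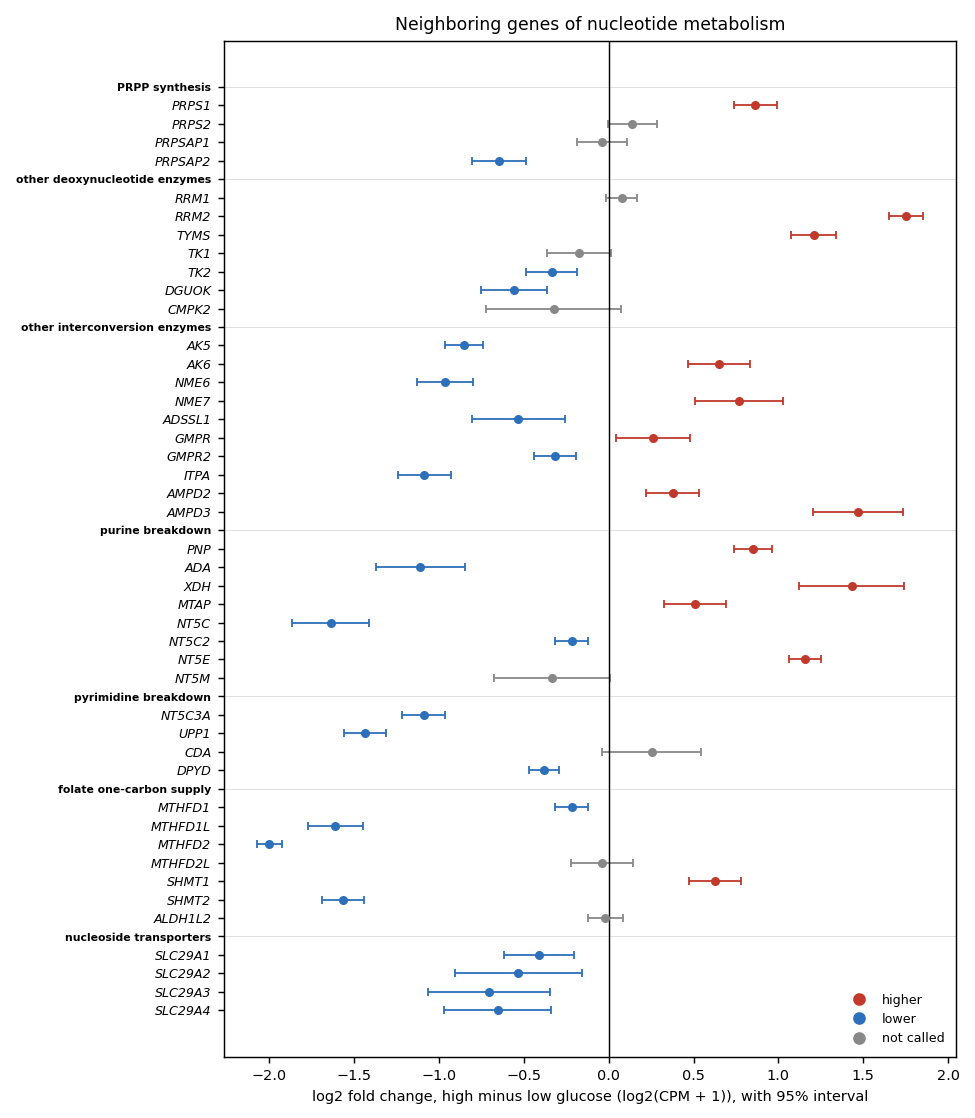
Log2 fold change of the 44 other genes of nucleotide metabolism, high minus low glucose from mean log2(CPM + 1) (x axis), with bars for the 95% interval and genes grouped by list (y axis). RRM2, AMPD3, XDH, TYMS and NT5E lie furthest right, between 1.16 and 1.75, and MTHFD2 lies furthest left at -2.00.

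Promoter windows, the 250 bases before to 50 after an annotated start in RefSeq (GRCh38.p14), were on hand for 34 of the 37 members, all but ADSL, IMPDH2 and RRM2B. They were searched on both strands for the letters of 6 known motifs, and a gene counted if any of its windows held the motif. A gene with more windows, such as AK4 with 4, had more chances to match, and the shares were not adjusted for this. The E-box CACGTG, the site of MYC and related factors, was in 9 members (26.5%), against 8.77% of 27305 genes with a window and 12.3% of the 10777 of these that were tested. Of the 9 genes, PAICS and AK4 were higher, ATIC, NME1, DHODH, UCKL1 and DCTPP1 were lower, and PPAT and DCK were not called. Their sites are shown with up to 10 bases on each side, each on its gene's strand and with the E-box in capitals, because this group held genes of all 3 outcomes. The coordinates, on GRCh38.p14, are chr4:56435782-56435807 (minus) for PPAT, chr4:56435782-56435801 (plus) for PAICS, chr2:215312003-215312028 (plus) for ATIC, chr1:65147449-65147474 (plus) for AK4, chr17:51153583-51153608 (plus) for NME1, chr16:72008575-72008600 (plus) for DHODH, chr20:63956634-63956659 (minus) for UCKL1, chr4:70993523-70993548 (plus) for DCK and chr16:30429794-30429819 (minus) for DCTPP1.
PPAT: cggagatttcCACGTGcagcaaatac
PAICS: gtatttgctgCACGTGgaaa
ATIC: gccggcgggcCACGTGataagcccgg
AK4: tcgcagggagCACGTGggccaggcag
NME1: tgctgcgaacCACGTGggtcccgggc
DHODH: cgctactgcgCACGTGcacccaacca
UCKL1: gccctccaggCACGTGgcggaggctg
DCK: ccccggccttCACGTGacctggcgtg
DCTPP1: agggttcctcCACGTGgtcgggaagc
The PPAT and PAICS lines are the same site read on opposite strands, at position -182 from the PPAT start and downstream of the PAICS start given above. The share of members with an E-box counts this site for both genes. ATIC and AK4 each held a further E-box in a window.

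An E2F site, written as TTTGGCGC, TTTCGCGC or TTTCCCGC, was in 3 members (8.82%), against 3.30% of all genes and 5.50% of those tested. These were GART at chr21:33542345-33542367 (minus), DUT at chr15:48332160-48332187 (plus), where the reverse complement of TTTCCCGC lies beside it, and DCK at chr4:70993660-70993687 (plus), shown because 2 of the 3 were among the 7 higher members. The motif is in capitals and is on the opposite strand in DCK.
GART: agcatTTTGGCGCtcccccccgg
DUT: aaatttcggtTTTGGCGCgctccctgcg
DCK: ctgcctccgcGCGCCAAAgtcaaacccc
Of the other motifs, the GC box GGGCGG was in 30 members (88.2%; 48.3% of all and 75.5% of tested genes), CCAAT in 9 (26.5%; 39.7% and 43.3%), the cAMP response element TGACGTCA in GUK1 and UMPS (5.88%; 2.25% and 3.67%), and TGATGNAAN, an element read by ATF4, in DCTD alone (2.94%; 4.45% and 2.87%). These matches describe letters in the windows, and binding was not measured.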

How the data were processed

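RNA from Hs578T cells (4 low- and 4 high-glucose libraries, grouped by the treatment label) was sequenced by the authors, who deposited 1 table of normalized signal per gene. The submitters' notes name edgeR and hg38, and the methods of the study describe CPM with TMM factors for RNA-Seq without naming cultured Hs578T cells, and the deposited signal was accordingly read as CPM scaled by TMM. Its columns sum to 1205567 to 1229021 in low and 1017015 to 1036274 in high glucose. For its tumors the study names TopHat and an earlier genome build. The aligner and counter of these libraries are not named by any source used here. The design had foreseen plain CPM, and its test was kept. Below 50 counts only part of the values (71.2% to 73.8%) were whole within 0.005 count, so no count model was run.

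Genes reaching 0.5 CPM in 2 or more libraries were analyzed. Values as log2(CPM + 1) were fitted across all genes in limma 3.58.1 (R 4.3.3; trended variance, no covariates; FDR 0.05). The fit was tested on simulated data. Ratios were tested by exact permutation. No pair of libraries was alike within sampling noise (chi-square per gene 1.60 to 5.72 within groups, 102 to 129 between). Promoters and positions are from RefSeq. The members, lists and pairs were chosen with earlier results of these data known; all members were named, and up to 4 called genes of each other list by smallest p. Markers were named after their values were seen. Alternatives covered the pseudocount, filter, scaling, variance prior, replicate block, summed rows and single libraries left out, and, chosen after the data were seen, high-glucose libraries 3 and 4 left out together. Some genes of these pathways are not reported here.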

Additional observations from a re-analysis of the deposited data

Results flagged for a closer look

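In 10 of 140 groups of 4 libraries (62 genes and 8 ratios), 1 library lay far from the other 3, by Dixon's ratio of the gap to the range, a criterion that chance meets in about 1 in 20 groups. Among the nucleotide synthesis genes, PAICS was at 119 CPM in low-glucose library 2 (the others at 109.9 to 111), ADSL at 83.2 CPM in high-glucose library 1 (76.5 to 77.3), ATIC at 94.9 CPM in high-glucose library 2 (98.8 to 99.0), ADK at 47.3 CPM in high-glucose library 4 (44.7 to 45.1) and DCTD at 73.9 CPM in high-glucose library 1 (66.0 to 66.8). None of the 5 values overlapped the other group. Among the other genes, XDH was at 4.77 CPM (3.81 to 3.96), MTHFD1L at 30.6 CPM (22.9 to 23.9) and SLC29A2 at 3.83 CPM (2.39 to 2.52) in high-glucose library 1, UPP1 at 102 CPM (98.7 to 99.1) in low-glucose library 1 and SLC29A3 at 1.95 CPM (3.10 to 3.30) in low-glucose library 3. High-glucose library 1 was the distant library in 5 of the 10 groups.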

How the results depend on the processing

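Over 20 alternatives, 26 of the 37 members stayed called in the same direction or stayed uncalled, and 11 gained, lost or turned a call in at least 1 (PPAT, AK1, AK3, GUK1, NME1, NME4, CMPK1, DHODH, CTPS2, DTYMK and RRM2B). Rescaling to the same total changed most, 10 members, with 10 higher and 17 lower. The members' median was -0.38, and -0.31 with a pseudocount of 5 CPM, -0.14 with the same total and -0.29 with quantile normalization. With at least a 2-fold change on the log2(CPM + 1) scale, 1 was higher and 4 were lower. CMPK1 turned to 0.14 with the same total and to 0.024 with quantile normalization. Other nucleotide genes called before or after rescaling that turned with the same total were PRPSAP1 (0.20), NT5C2 (0.023), MTHFD1 (0.025) and ALDH1L2 (0.22). Of the markers and proliferation genes, SPARC (0.09), COL1A1 (0.03) and CDC20 (0.11) did so as well. Among nucleotide genes called in neither, PPAT (0.10), PFAS (0.11), DCK (0.16), TK1 (0.060) and MTHFD2L (0.19) changed sign. GUK1 lost its call with quantile normalization (adjusted p = 0.0987), a constant variance prior (0.0829) and robust empirical Bayes (0.0902), CTPS2 with quantile normalization (0.123), and CMPK1 with median-of-ratios scaling (0.139) and a constant variance prior (0.0751). Leaving out 1 library gave 7 to 8 members higher and 23 to 25 lower, and 10989 to 11101 genes called. UCK1 to UCK2 shifted by -0.25 with a pseudocount of 5 CPM (adjusted exact p = 0.0571) and by -0.41 to -0.30 with 1 library left out, losing its call without each of the high-glucose libraries (adjusted exact p = 0.0571).

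Replicate numbers did not pair the libraries (correlations of same-numbered deviations -0.0267, 0.112, 0.0120 and 0.0836, with replicates 2 and 4 best matched to their own number). The replicate block moved no member's call (11494 genes called). With the block, the 8 ratios were tested by sign flips, whose smallest p is 0.125, so none could pass, at the same differences (IMPDH1 to IMPDH2 0.81, CTPS1 to CTPS2 0.81, UCK1 to UCK2 -0.35, UCKL1 to UCK2 -1.07, NME1 to NME2 0.39, NME3 to NME4 -0.75, AK3 to AK4 -0.65, RRM2B to RRM2 -2.06). Where not given, the cause of a change was not tested. Depth limits DHODH and NME3 most, at 24 to 72 estimated counts, a precision that covers counting error only.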

Other observations

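High-glucose libraries 3 and 4 were both below libraries 1 and 2 for 13 of the 37 members (35.1%), against 25.7% of all genes tested, and both above them for 8 (21.6%), against 23.0%. GUK1, IMPDH1, APRT, NME2 and CAD were among the 13, a choice made after their values were seen. Without both libraries, 8 members were higher and 24 were lower, with a median log2 fold change of -0.34.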
